A study of Mus musculus with 2 samples.

Results

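IGHV1-26 is a variable (V) gene of the mouse antibody heavy chain, and its cells are those whose only productive heavy-chain contig, an assembled receptor transcript that can encode a protein, was assigned to this gene. There were 369 such cells among 6241 cells with exactly 1 productive heavy chain: 218 of 3294 in one library and 151 of 2947 in the other. The gene was chosen by its share of cells in these same files, where it was among the most used V genes, so that share is a description and was not tested. Cells came from Peyer's patches, which are lymphoid tissue in the wall of the small intestine, and CD45+ cells (leukocytes) had been enriched.

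Each of the 2 libraries pooled the cells of 4 adult female mice. The mice of the Cre+ library were H2-Ab1 fl/fl; Villin:Cre+ and those of the Cre- library H2-Ab1 fl/fl; Villin:Cre-, so both groups carry floxed H2-Ab1, which encodes a chain of MHC class II. Villin drives the recombinase in the intestinal epithelium and not in the B cells measured here. The groups follow the sample labels, since the design text gives Cre- in both genotypes, and no reading of H2-Ab1 was used here to check them. Genotype, mice and library cannot be told apart with 1 library per genotype, and no p-value is given. Shares carry exact 95% Clopper-Pearson intervals, and a difference of shares carries an interval combined from its 2 exact ones. All of them cover counting error only.

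Antibody heavy chains are assembled in developing B cells by joining a V, a D and a J gene, and the junction of the 3 forms CDR3, the most variable loop of the antigen-binding site. A naive B cell makes IgM and IgD from the assembled exon. After activation it can switch to IgG or IgA and accumulate point mutations, which in Peyer's patches happens in germinal centres, and it can become an antibody-secreting cell with far more receptor transcript. V genes differ in how often they are joined, and their use in unswitched cells mostly describes the naive repertoire.

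The V end of CDR3 in these cells was short, and how often other V genes give the same bases is not reported here. Of the 331 unswitched IGHV1-26 cells, those called IgM or IgD, 286 began their CDR3 with the same 8 bases, which encode the invariant cysteine, an alanine and the first bases of the next codon. Each IGHJ gene contributed its own end, and the most common 9 bases before the last codon are given here because mismatches to these windows are counted further on.

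IGHV1-26, first 8 bases: tgtgcaag
IGHJ1, 9 bases before the last codon: ttcgatgtc
IGHJ2, 9 bases before the last codon: tttgactac
IGHJ3, 9 bases before the last codon: tttgcttac
IGHJ4, 9 bases before the last codon: atggactac

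Ordinary unswitched CDR3s of the gene show the same ends around different centres. The 4 shown next are single cells with IGHD1-1, the D gene called most often, 1 with each IGHJ gene. Where the 8-base core CTACGGTA, the most common 8-mer of IGHD1-1 CDR3s, was present, it is in capitals.

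Cre+ IgM cell, IGHJ1: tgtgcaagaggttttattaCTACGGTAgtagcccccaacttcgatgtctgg
Cre+ IgM cell, IGHJ2: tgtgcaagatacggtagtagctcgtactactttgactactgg
Cre+ IgM cell, IGHJ3: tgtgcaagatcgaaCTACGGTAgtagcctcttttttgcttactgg
Cre- IgD cell, IGHJ4: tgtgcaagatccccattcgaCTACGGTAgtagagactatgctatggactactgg

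IGHV1-26 was the most used V gene of unswitched cells in both libraries. It made up 6.87% (5.98 to 7.85) of 2911 unswitched cells in the Cre+ library, where IGHV1-64 came next with 3.78% (3.12 to 4.54). It made up 5.78% (4.86 to 6.83) of 2265 unswitched cells in the Cre- library, where IGHV3-6 came next with 4.06% (3.29 to 4.96). These shares chose the gene, so its distance from the next gene is given with no test. Within the IGHV1 family, the largest V gene family of the mouse, it accounted for 10.7% of 2041 cells and 9.57% of 1578 cells.

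**Figure D1:**
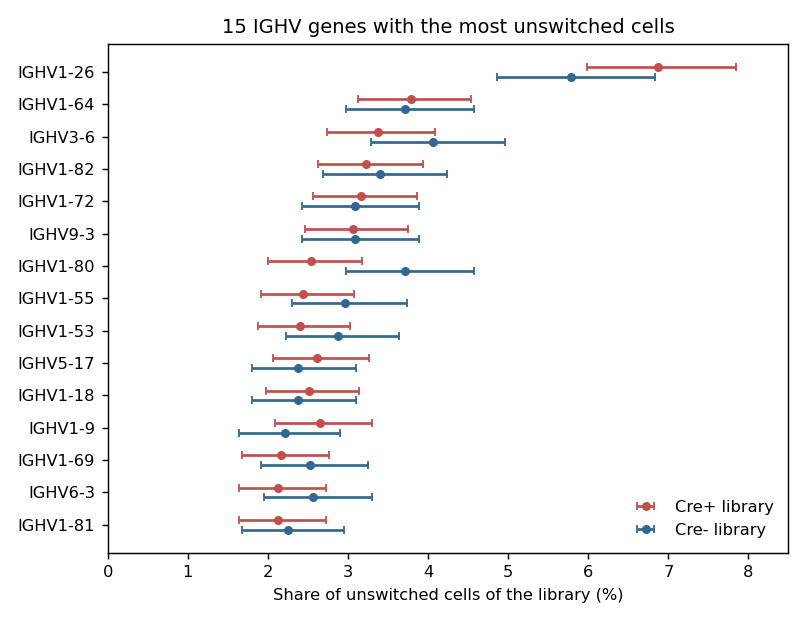
Share of unswitched cells (%, x axis) for the 15 IGHV genes with the most unswitched cells, in the Cre+ and the Cre- library; points are shares and bars exact 95% intervals. IGHV1-26 stands at 6.87% and 5.78%, above the point of each other gene in both libraries.

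The share was somewhat higher in the Cre+ library over all cells, and the difference was smaller without the largest lineages. Over all cells it was 6.62% (5.79 to 7.52) in the Cre+ library and 5.12% (4.36 to 5.98) in the Cre- library, a Cre+ minus Cre- difference of 1.49 points (0.303 to 2.68). The exact intervals of the 2 shares overlapped, as they did for most genes: the intervals were apart for 6.25% of the 64 IGHV genes compared. In the Cre- library 417 cells, nearly all IgA, belonged to a single IGHV4-1 lineage, which placed IGHV1-26 second there. With each library's largest lineage left out, the shares were 6.75% and 5.97%, and the difference of 0.781 points had an interval from -0.522 to 2.06, with 1.56% of genes apart. In unswitched cells the difference was 1.09 points (-0.285 to 2.44), with 0% of 61 genes apart.

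The share was alike in both unswitched isotypes. It was 6.49% of IgM and 7.61% of IgD cells in the Cre+ library, and 5.90% and 5.53% in the Cre- library. Among IgA cells it was 10 of 207 (4.83%) in the Cre+ library and 9 of 557 (1.62%) in the Cre- library. These became 6.49% and 6.38% once the largest lineages were left out, a difference of 0.111 points (-6.23 to 6.27). Among IgG cells it was 7 of 158 (4.43%) and 9 of 115 (7.83%), a difference of -3.40 points (-10.4 to 2.74).

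In RefSeq's table for GRCm38.p6, Ighv1-26 (gene ID 629884) spans 294 bases at chr12:114788372-114788665 and is annotated as a V segment. It lies 1.36 Mb from Ighj1, with 67 of the other V segments nearer to the D and J genes and 52 farther. Its use was not shared by its neighbours. The nearest V segments on either side seen in any unswitched cell, Ighv1-22 and Ighv1-31, made up 1.13% and 0.447% of unswitched cells in the Cre+ library, and 1.81% and 0.177% in the Cre- library. Ighv1-23 and Ighv1-24, V segments between Ighv1-22 and Ighv1-26, were seen in 0 unswitched cells, which with 3 counts allows up to 0.103% and 0.132%.

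Most IGHV1-26 cells were IgM or IgD, and switched cells were few. In the Cre+ library 57.6% of 217 cells with a constant gene called were IgM, 34.6% IgD, 4.61% IgA, 0.922% IgG1 and 2.30% IgG2b. In the Cre- library the same shares over 149 cells were 61.1%, 26.8%, 6.04%, 0.671% and 5.37%. IgG2c, IgG3 and IgE were found in 0 IGHV1-26 cells of either library, which with 3 counts allows up to 1.38% and 2.01%.

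Switched cells numbered 17 (7.83%, 4.63 to 12.2) and 18 (12.1%, 7.32 to 18.4). In other IGHV1 cells 10.3% of 1811 and 9.72% of 1420 were switched. IgG of any subclass made up 3.23% of IGHV1-26 cells against 5.69% in the Cre+ library, and 6.04% against 4.01% in the Cre- library, with intervals of the difference from -4.71 to 1.0 points and from -1.42 to 7.23 points. For each isotype named, the interval of the difference between IGHV1-26 and other IGHV1 cells, and of that between the libraries, included 0. With 17 and 18 switched cells only large differences could be seen. The other IGHV1 cells are the comparison from here on: 1823 and 1427 cells that share the family and the library but hold neither library's largest lineage.

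**Figure D2:**
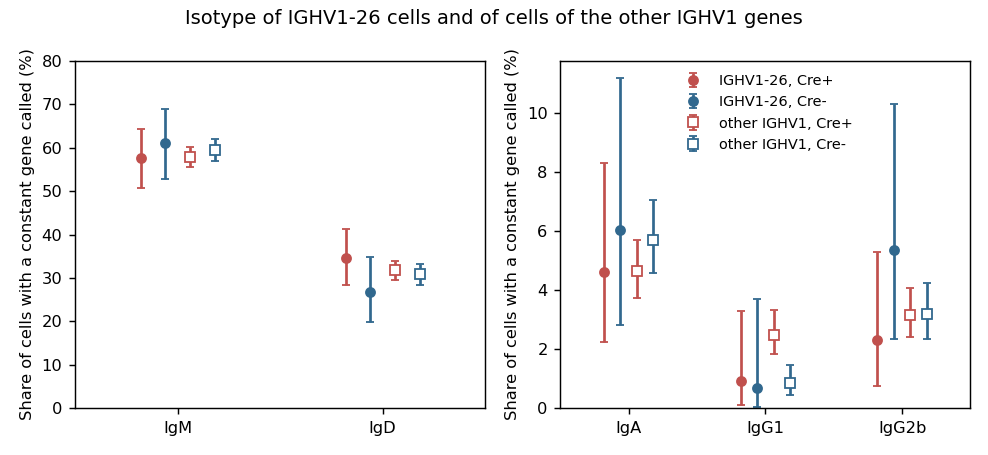
Share of cells with a constant gene called (%, y axis) that were IgM, IgD, IgA, IgG1 or IgG2b, for IGHV1-26 (filled circles) and the other IGHV1 genes (open squares) in each library, with exact 95% intervals; the 2 panels have different y scales. The IGHV1-26 interval overlaps that of the other IGHV1 genes at every isotype shown.

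D and J partners were mostly those of the family. IGHD1-1 was called in 41.5% (34.3 to 49.0) of unswitched Cre+ cells with a D gene and in 32.8% (24.4 to 42) of Cre- cells. IGHD2-3 had 12.6% in both libraries, and IGHD4-1, the shortest of the D genes named, had 9.84% and 8.40%. Among unswitched cells, of the D genes with 10 or more IGHV1-26 cells, only IGHD2-4 had intervals of a difference that left out 0. It had 6.56% in the Cre+ library, against 16% in the Cre- library, a difference of -9.41 points (-17.8 to -1.78), and against 12.2% in other IGHV1 cells of the Cre+ library, a difference of -5.62 points (-9.20 to -0.728). Over all isotypes these differences were -8.56 points (-16.5 to -1.24) and -4.72 points (-8.37 to 0.0937), the latter including 0. D genes are short and trimmed at both ends, so a D call rests on few bases.

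J use followed the order IGHJ2 first in both libraries. In unswitched cells IGHJ2 made up 39.5% and 42.7%, IGHJ1 16% and 15.3%, IGHJ3 19.5% and 24.4%, and IGHJ4 25% and 17.6%, Cre+ first. In other IGHV1 cells these were 38.4% and 38.8% for IGHJ2 and 23.2% and 23.6% for IGHJ4. No J gene had an interval of the difference that left out 0, between libraries or against other IGHV1 cells. Across all isotypes the most common D and J combination was IGHD1-1 with IGHJ2, in 30 Cre+ cells (13.8%) and 20 Cre- cells (13.2%).

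**Figure D3:**
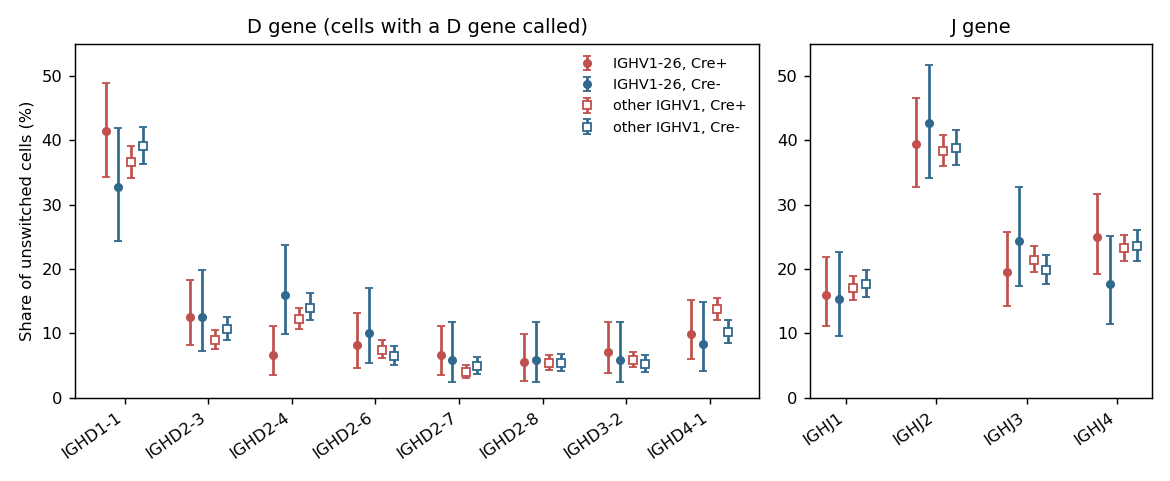
Share of unswitched cells (%, y axis) by D gene (left, cells with a D gene called) and J gene (right), for IGHV1-26 (filled circles) and the other IGHV1 genes (open squares) in each library, with exact 95% intervals. IGHD1-1 leads at 41.5% and 32.8%, and IGHD2-4 is low at 6.56% in the Cre+ library.

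The IGHD1-1 core was read mainly in 1 frame. Among IGHD1-1 cells, 52 of 76 in the Cre+ library and 29 of 39 in the Cre- library held the 8-base core, and 76.9% (63.2 to 87.5) and 69.0% (49.2 to 84.7) of these read it as tyrosine and glycine. Another frame, read as threonine and valine, took 21.2% and 24.1%. Other IGHV1 cells read tyrosine and glycine in 70.7% and 72.2%. Of the CDR3s printed above, those with IGHJ3 and IGHJ4 are of the first kind and the one with IGHJ1 of the second.

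CDR3 was of middling length, with fewer loops of 16 or more amino acids than in the family. The median over unswitched cells was 14 amino acids in the Cre+ library (interquartile range 13 to 15, n = 200) and 13 in the Cre- library (12 to 15, n = 131), counted from the first cysteine to the last tryptophan. The means were 13.9 ± 2.36 and 13.7 ± 2.54 (SD over cells), against 14.1 ± 2.63 and 14.2 ± 2.57 in other IGHV1 cells, differences well under the spread among cells. Loops of 16 or more amino acids, a length chosen after the distributions were seen, made up 42 of 200 Cre+ cells (21%, 15.6 to 27.3) against 31.1% (28.8 to 33.4), and 28 of 131 Cre- cells (21.4%, 14.7 to 29.4) against 30.6% (28.1 to 33.2). The IGHV1-26 minus other IGHV1 differences were -10.1 points (-16 to -3.40) and -9.20 points (-16.4 to -0.804). Among cells with IGHD1-1 alone they were -19.7 points (-30.7 to -7.26) and -12.7 points (-28.1 to 4.86). Length followed the J gene: cells with IGHJ2 had a median of 13 in both libraries, and those with IGHJ1 or IGHJ4 a median of 15 in both. Cells with no D gene called had medians of 10 and 11, and those with IGHD1-1 a median of 15 in both.

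**Figure D4:**
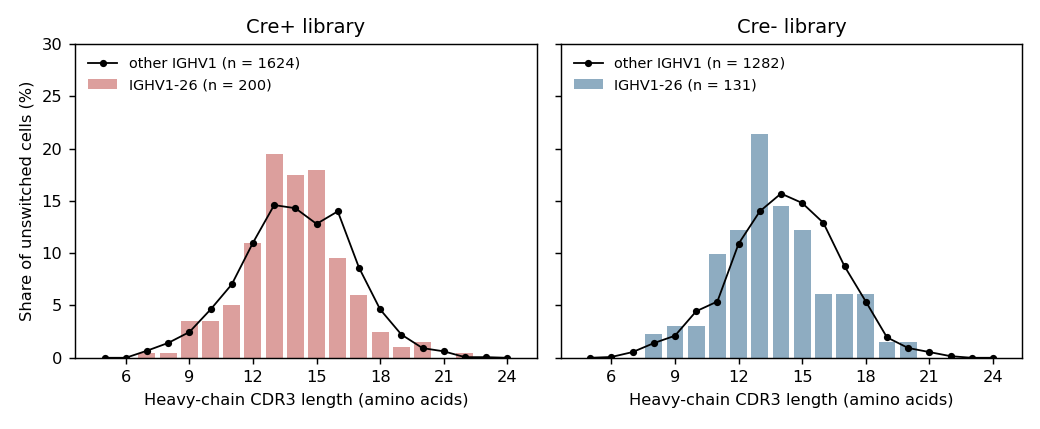
Distribution of heavy-chain CDR3 length (amino acids, x axis) as the share of unswitched cells (%, y axis), for IGHV1-26 (bars) and the other IGHV1 genes (black line), 1 panel per library. The bars are highest at 13 amino acids in both libraries, and from 16 to 17 amino acids they lie below the line.

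The shortest and longest CDR3s spanned 7 to 22 amino acids in the Cre+ library and 8 to 21 in the Cre- library. They are printed because they show how much or how little lies between the ends. Capitals mark bases that differ from the windows given above; in the shortest, trimming of the gene ends can give such differences. The Cre- library had 3 CDR3s of 8 residues, of which 1 is shown.

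Cre+ IgD cell, shortest: tgtgcaGAtttcgatgtctgg
Cre- IgM cell, among the shortest: tgtgcaagagactttgactactgg
Cre+ IgD cell, longest: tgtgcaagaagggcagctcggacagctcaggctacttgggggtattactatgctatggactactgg
Cre- IgG2b cell, longest: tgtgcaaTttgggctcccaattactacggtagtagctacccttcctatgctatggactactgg

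Between its 3 opening residues and its last residue, CDR3 was acidic on average, as in the family. Charges were counted over that stretch only, so the arginine of the common opening CAR is left out of them. Counting lysine and arginine as +1 and aspartate and glutamate as -1, the mean net charge of unswitched cells was -0.890 (SD 1.06) and -1.02 (SD 1.18), against -1.18 and -1.21 in other IGHV1 cells. A positive net charge was found in 9% of Cre+ cells against 4.43%, a difference of 4.57 points (0.818 to 9.51). In the Cre- library it was 8.40% against 4.99%, a difference of 3.40 points (-0.937 to 9.64). A negative net charge was found in 69% and 71.8% of cells, against 73.9% and 75.2%, and the intervals of both differences included 0 (-12.1 to 1.82, and -12.3 to 4.47). In switched cells the mean net charge was -1.12 and -1, against -1.14 and -1.15. CDR3s opened with CAR in 82% and 80.9% of unswitched cells, close to the 79.5% and 80.3% of the family. The opening CTR was found in 0 of 200 and 0 of 131 unswitched cells, which with 3 counts allows up to 1.5% and 2.29%, while 4.13% and 3.90% of other IGHV1 cells had it.

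The CDR3s were almost all different. The 369 cells held 368 distinct amino acid CDR3s, of which 0 occurred in both libraries and 0 occurred with another IGHV gene. The libraries shared 10 cell barcodes, of which 0 belonged to IGHV1-26 cells.

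Light chains were varied and mostly kappa. A light chain was found in 216 of 218 and 150 of 151 cells, and it was lambda in 3.7% (1.61 to 7.17) and 2.67% (0.731 to 6.69), close to the 3.05% and 3.69% of other IGHV1 cells. All but 1 of the 12 lambda chains used IGLV1, and the remaining chain, in the Cre+ library, used IGLV2. The 354 kappa chains used 70 IGKV genes. The 10 IGKV genes with the most IGHV1-26 cells held 136 of these, led by IGKV10-96 with 24, IGKV13-84 with 16, IGKV1-117 with 14 and IGKV6-15 with 13. IGKV12-44, IGKV6-23 and IGKV9-120 had 12 cells each, and IGKV1-110, IGKV12-46 and IGKV3-2 had 11 each.

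No single IGKV gene stood apart from the family. Over genes with 5 or more IGHV1-26 cells, the exact intervals were apart for 0 of 17 genes (0%) in the Cre+ library and 0 of 12 (0%) in the Cre- library. IGKV10-96 made up 6.73% and 6.85% of kappa cells, against 5.71% and 5.01% in other IGHV1 cells. IGKV13-84 made up 3.37% and 6.16%, against 1.66% and 1.99%, and only in the Cre- library did the interval of its difference, 4.17 points (0.749 to 9.43), leave out 0. IGKV1-110 was below the family in the Cre+ library, with 1.92% against 5.26%, a difference of -3.33 points (-5.14 to -0.241), and equal to it in the Cre- library at 4.79%.

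At the level of families, IGKV13 was used more often with IGHV1-26 in both libraries. It was chosen for mention after its values were seen. In unswitched cells it made up 13 of 190 kappa chains (6.84%, 3.69 to 11.4) in the Cre+ library, against 2.50% (1.78 to 3.40). In the Cre- library it made up 11 of 127 (8.66%, 4.40 to 15), against 3.11% (2.21 to 4.25). Exact intervals were apart for 11.8% of 17 IGKV families in the Cre+ library, IGKV13 and IGKV14, and for 6.25% of 16 in the Cre- library, IGKV13. IGKV14, found in 0 of 190 Cre+ cells against 3.85%, had 3.15% in the Cre- library against 3.36%.

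Among unswitched IGHV1-26 cells the libraries differed in IGKJ5 and IGKJ1 by intervals that left out 0. IGKJ5, the J gene farthest from the kappa V genes, made up 28.9% (22.6 to 36) of unswitched Cre+ kappa chains and 16.5% (10.5 to 24.2) of Cre- chains, a difference of 12.4 points (2.50 to 21.6). IGKJ1, the nearest to them, made up 26.8% and 37.8%, a difference of -11 points (-21.9 to -0.0478). Over all isotypes IGKJ5 made up 55 of 208 Cre+ chains (26.4%) and 29 of 146 Cre- chains (19.9%), and its difference of 6.58 points had an interval from -2.86 to 15.6, while that of IGKJ1 was -11.4 points (-21.7 to -1.14). In unswitched IGHV1-26 cells IGKJ2 was at 28.9% and 29.9%, and IGKJ4 at 15.3% and 15.7%. The libraries also differed in unswitched other IGHV1 cells. There IGKJ5 was at 22.6% and 25.3%, IGKJ1 at 32.5% and 28.7%, IGKJ2 at 30.7% and 35.2%, and IGKJ4 at 14.2% and 10.8%. A difference between the libraries in IGKJ use was thus not particular to IGHV1-26. The exact intervals of the 2 libraries overlapped for both J genes in IGHV1-26 cells.

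How many IGHV1-26 cells fell in lineages depended on the rule used to join them. By a rule on the heavy chain alone (same J gene and CDR3 length, 85% or more identical CDR3 bases, within a library), 29 of 218 Cre+ cells (13.3%, 9.09 to 18.5) fell in 14 lineages of 2 or more cells, and 9 of 151 Cre- cells (5.96%, 2.76 to 11) in 3. In other IGHV1 cells this rule gave 8.45% and 6.17%, differences of 4.86 points (0.428 to 10.2) and -0.207 points (-3.69 to 4.98). The same rule matched 5.96% of Cre+ cells and 7.95% of Cre- cells to a cell of the other library, which holds other mice. For other IGHV1 cells these matches were 3.62% and 4.63%. Cells are joined only within a V gene, so a gene with more cells offers more possible pairs, and these shares are not a measure of clonal growth alone. The largest group, 5 Cre- cells with IGHJ2, was joined by single steps, and its least alike pair shared 72.2% of bases and its cells had 5 different D calls.

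Once the light V gene had to match too, 2 of 218 Cre+ cells (0.917%) and 0 of 151 Cre- cells remained in a lineage. In other IGHV1 cells 4.72% and 2.73% did, differences of -3.80 points (-5.14 to -1.27) and -2.73 points (-3.72 to -0.196). Leaving out the largest lineage of those cells in each library, which in the Cre+ library was an IGHV1-9 lineage, gave 3.23% and 2.46%, and the intervals of the differences then included 0 (-3.54 to 0.166, and -3.40 to 0.0648). The clonotypes deposited by the authors placed 0 IGHV1-26 cells of either library in a clonotype of 2 or more.

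The lineage that remained was a pair of Cre+ IgA cells with IGHD1-1 and IGHJ2. Their CDR3s differed by 1 of 42 bases, T32A counted from the first base of CDR3, which gives F11Y in the amino acids. Both carried IGKV4-69 with IGKJ4 and the same light CDR3 amino acids, whose bases differed at 1 of 33 positions, so the 2 barcodes held different heavy and light transcripts. The capital marks the base that differs.

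Cre+ IgA cell of 72 heavy UMIs: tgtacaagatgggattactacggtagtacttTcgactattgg
Cre+ IgA cell of 8 heavy UMIs: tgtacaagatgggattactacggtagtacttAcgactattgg

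The single case of identical CDR3 bases was of another kind. It lay in a pair of Cre+ IgM barcodes, with 126 and 3 heavy-chain UMIs (unique molecular identifiers, tags that count RNA molecules), which held the same heavy CDR3. Their light chains were different, IGKV6-23 with 318 UMIs and IGKV4-59 with 21. Whether the second barcode had its own heavy chain or RNA from the first was not tested.

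Cre+ IgM pair: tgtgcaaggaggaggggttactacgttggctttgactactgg

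Switched cells more often had a base that differs from the common window on the V side. On the V side, 24 of 200 unswitched Cre+ cells (12%) and 21 of 131 Cre- cells (16%) had a mismatch in the first 8 bases, against 9 of 17 (52.9%) and 7 of 18 (38.9%) switched cells. The switched minus unswitched differences were 40.9 points (15.3 to 65.4) and 22.9 points (0.0273 to 48.9). On the J side the unswitched shares were 19.5% and 18.3%, the switched ones 41.2% and 38.9%, and the intervals of both differences included 0 (-1.88 to 48.1, and -2.35 to 46.7). For either side the differences were 36.7 points (9.47 to 58.7) and 25.8 points (-0.466 to 49.9). In other IGHV1 cells the J-side shares were 16.3% and 17.2% unswitched, and 31.0% and 37.0% switched. J-side mismatch also depended on the J gene. The IGHJ2 window fitted 84 of 135 unswitched IGHV1-26 cells, against 51 of 52 for IGHJ1, 63 of 71 for IGHJ3 and 70 of 73 for IGHJ4. By isotype, the V side had a mismatch in 6 of 10 IgA and 3 of 7 IgG cells of the Cre+ library, and in 1 of 9 IgA and 6 of 9 IgG cells of the Cre- library. Among unswitched cells it was 7.20% of IgM and 20% of IgD cells in the Cre+ library, and 16.5% and 15% in the Cre- library.

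A mismatch to a common window is a mutation, a trimmed gene end or an added base, and the files hold no sequence outside CDR3 to tell these apart. In unswitched cells V-side mismatches were mostly at the junction: position 8 differed in 11% and 13.0% of cells and position 4 in 0.50% and 0.763%. In switched cells position 4, the first base of the alanine codon, differed in 7 of 17 Cre+ cells and 2 of 18 Cre- cells. The differences from unswitched cells were 40.7 points (17.8 to 66.6) and 10.3 points (0.0298 to 34.0), and 37 points (14.6 to 64.1) in the Cre+ library with the IgA pair counted once. This position was singled out after its values were seen.

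The second residue of CDR3, encoded by positions 4 to 6, was alanine in 198 of 200 and 127 of 131 unswitched cells. In switched Cre+ cells it was alanine in 10, serine in 4 and threonine in 3, and in switched Cre- cells alanine in 15, threonine in 2 and valine in 1. Some of the switched CDR3s are printed to show this, with capitals at bases that differ from the windows.

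Cre+ IgA cell, 32 heavy UMIs, IGHJ2: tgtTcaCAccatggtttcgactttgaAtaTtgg
Cre+ IgA cell, 20 heavy UMIs, IGHJ2: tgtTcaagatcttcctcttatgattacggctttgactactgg
Cre+ IgA cell, 21 heavy UMIs, IGHJ1: tgtAcTGggatggacttcgaCgtctgg
Cre+ IgG1 cell, 24 heavy UMIs, IGHJ4: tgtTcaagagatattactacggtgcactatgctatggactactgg
Cre- IgG1 cell, 24 heavy UMIs, IGHJ4: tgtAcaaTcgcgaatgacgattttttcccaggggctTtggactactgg
Cre- IgG2b cell, 2 heavy UMIs, IGHJ3: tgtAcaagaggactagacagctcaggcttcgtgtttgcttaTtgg
Cre- IgG2b cell, 8 heavy UMIs, IGHJ2: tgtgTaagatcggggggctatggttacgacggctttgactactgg

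The first of these, with 32 heavy UMIs, had 5 mismatches (G4T, A7C, G8A, C27A and C30T, the window's base first and counted from the first base of CDR3), on both the V and the J side. The Cre+ IgA cell with 20 heavy UMIs and the Cre+ IgG1 cell each had the single mismatch G4T. Other switched cells had none: 6 of 17 Cre+ and 8 of 18 Cre- switched cells matched both windows.

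IGHV1-26 cells had somewhat fewer heavy-chain UMIs than the family. In IgM cells the median was 6 in both libraries (95% interval of the median 6 to 7 and 5 to 7), against 8 in other IGHV1 cells (7 to 8 and 8 to 8). Their light-chain medians, 26 and 33 UMIs, stood beside 30 and 33. Among the IGHV genes with 20 or more IgM cells in the library, the heavy median was the second lowest of 37 genes, tied among 4, in the Cre+ library and the third lowest of 29, tied among 2, in the Cre- library. In IgA cells the medians were 7.50 and 18, against 17 and 13, from 10 and 9 cells.

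A single cell held a large part of each library's IGHV1-26 transcripts. In the Cre- library an IgA cell had 989 of the 2248 heavy-chain UMIs of the gene (44.0%) and 8888 light-chain UMIs from IGKV12-89. In the Cre+ library an IgM cell had 612 of 2405 (25.4%) and 2589 light-chain UMIs from IGKV4-57. All other IGHV1-26 cells but the 126-UMI cell described above had fewer than 100 heavy-chain UMIs. Cells with 100 or more were 0.917% and 0.662% of IGHV1-26 cells, against 1.04% and 1.05% of other IGHV1 cells. The IgA cell had 4 mismatches (T3C, T34G, T35A and T36A) and the IgM cell had none.

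Cre- IgA cell, 989 heavy UMIs, IGHJ3: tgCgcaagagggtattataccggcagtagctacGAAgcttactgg
Cre+ IgM cell, 612 heavy UMIs, IGHJ2: tgtgcaagagaggggttttttgactactgg

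**Figure D5:**
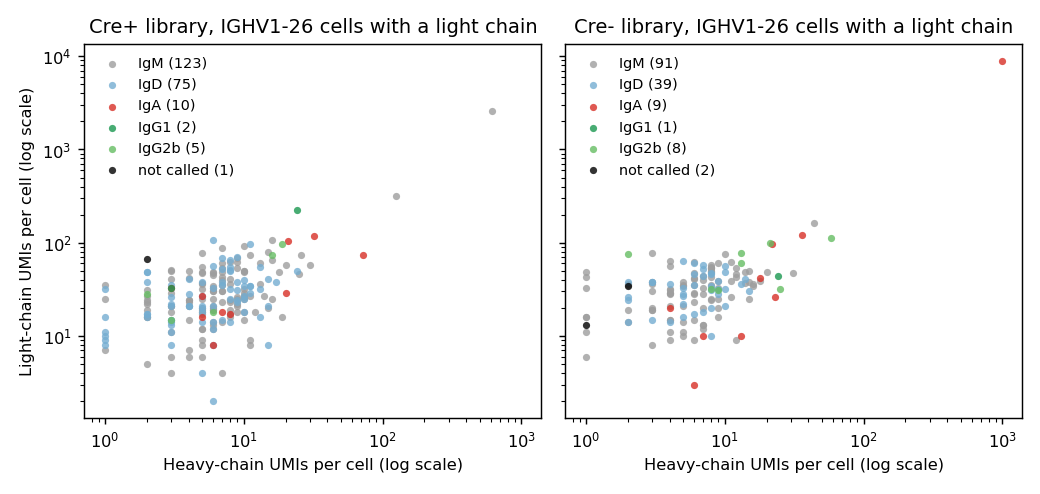
Heavy-chain UMIs (x axis) against light-chain UMIs (y axis) per IGHV1-26 cell with a light chain, both on log scales, 1 panel per library; each point is a cell, coloured by isotype, with the number of cells in the legend. Most cells lie under 100 heavy UMIs, and the cells at 612 (Cre+, IgM) and 989 (Cre-, IgA) stand far to the upper right.

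Among contigs not called productive, IGHV1-26 was less common than among productive chains. Of its 8 Cre+ and 4 Cre- contigs of this kind, 2 and 3 had no CDR3 found, and 2 and 0 had a stop in CDR3. IGHV1-26 made up 8 of 322 nonproductive heavy contigs with a V and a J gene (2.48%, 1.08 to 4.84) in the Cre+ library and 4 of 246 (1.63%, 0.445 to 4.11) in the Cre- library. The differences from its share of cells outside the largest lineages were -4.26 points (-5.95 to -1.77) and -4.34 points (-5.89 to -1.70). This direction was common among much-used genes: of 19 IGHV genes with 100 or more cells, the productive share lay above the nonproductive one, with an interval above 0, in 68.4%. These genes, like IGHV1-26 itself, were chosen by their productive cells, which favours a higher productive share. IGHV2-2, the most common gene among nonproductive contigs (28 of 322 and 15 of 246), had 82 cells and was left out by this minimum. IGHV1-64 had 3.73% of cells and 0.704% of nonproductive contigs, and IGHV3-6 had 3.66% and 3.87%. In barcodes with 2 or more productive heavy chains, IGHV1-26 made up 13 of 300 chains (4.33%) and 7 of 167 (4.19%). All of these were unswitched.

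The genes most like IGHV1-26 were found by the mean distance between profiles over the 2 libraries, as the share of cells that would have to change category, among 45 genes with 50 or more cells. In constant genes they were IGHV1-81 (3.46 points), IGHV3-6 (4.64) and IGHV1-22 (6.0). In IGHJ genes they were IGHV9-3 (5.68 points), IGHV1-53 (5.70) and IGHV1-78 (5.79). By library, Cre+ first, these were 0.570 and 10.8, 5.79 and 5.61, and 5.98 and 5.59. The means were close, and their order was not tested.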

How the data were processed

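Peyer's patch cells were sequenced with a 10x Genomics 5' V(D)J kit for B cell receptors, per the labels' protocols. The submitters' notes on processing list Cell Ranger and GRCm38, with no version given in the sources used here. Gene expression of the cells was not used here, so cell types were not checked by markers. The deposited contig tables give, per the file headers, the count of reads and UMIs for each contig, its genes and its CDR3; they were not normalised. The clonotype tables deposited by the authors hold a count of barcodes per clonotype, and these equalled counts recomputed from the contigs. The Cre+ library had 355258 UMIs and 22003594 reads in 3748 barcodes, and the Cre- library 355985 UMIs and 19982305 reads in 3245.

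A cell was a barcode with exactly 1 productive heavy chain; no doublet caller was run, and barcodes with 2 or more (145 and 83) were left out. A constant gene was called in all but 1 and 2 IGHV1-26 cells. The light chain was the productive one with the most UMIs. V genes of near-identical sequence can be confused in the authors' calls. Intervals of medians are from order statistics. The lineage and interval functions were tested on simulated data. Python 3.11.15, pandas 2.3.3 and scipy 1.17.1 were used. The members, gene lists and windows were chosen with earlier results of these data known. The text names all constant and IGHJ genes, IGHD genes with 10 or more IGHV1-26 cells, the 10 IGKV genes with the most, all IGLV genes, and CDR3s that were shared, expanded, shortest or longest; others are said to have been chosen after their values were seen, as were the switched and high-UMI CDR3s printed. Alternatives varied the barcode rule, the UMI minimum, the lineage rule, the windows and the counting of clonal cells.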

Additional observations from a re-analysis of the deposited data

Results flagged for a closer look

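IGHV1-26 was also seen in contigs that the definition of a cell leaves out. Each share is given beside the limit that a count of 0 allows, and lying above it says only that such contigs were seen. It made up 2.48% of nonproductive heavy contigs in the Cre+ library (limit 0.932%) and 1.63% in the Cre- library (limit 1.22%). In barcodes with 2 or more productive heavy chains it made up 4.33% of chains in the Cre+ library (limit 1%) and 4.19% in the Cre- library (limit 1.80%). In these barcodes it was the chain with the most UMIs in 5 of 13 Cre+ and 3 of 7 Cre- cases.

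For some isotypes IGHV1-26 differed from other IGHV1 cells in opposite directions in the 2 libraries. The IgG share was 2.46 points lower in the Cre+ library (difference -2.46) and 2.03 points higher in the Cre- library. IgD among unswitched cells was 2.09 points higher and 3.55 points lower (difference -3.55). The IgA differences were -0.0300 and 0.336 points. The interval of each of these includes 0, and with 1 library per genotype the difference between libraries was not tested.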

How the results depend on the processing

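No paired analysis was possible because each genotype has 1 library. Of 180 values recomputed under an alternative, 161 stayed within the 95% interval of the value reported; all 19 others concern lineages or mismatch windows. Cells in lineages of 2 or more (13.3% and 5.96%) became 31.2% and 17.2% at 80% identity, 3.67% and 0% at 90%, 0.917% and 0% with identical CDR3 bases or with the light V gene required, and 0% and 0% by the authors' clonotypes. J-side mismatches with windows of 6 and 12 bases were 8% and 42.5% of unswitched Cre+ cells, 5.34% and 36.6% of unswitched Cre- cells, and 16.7% and 72.2% of switched Cre- cells; in switched Cre+ cells 12 bases gave 70.6%. V-side mismatches over 6 bases were 3.5% and 6.87% of unswitched cells, against 41.2% and 22.2% of switched cells. A wider window takes in more of the junction by construction. The 17 and 18 switched cells and the lone library per genotype limit every comparison of isotypes or genotypes. The heavy UMI median was also computed without cells of 100 or more UMIs, an alternative chosen after seeing the data, as was leaving out the family's largest lineage.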
